A study of Mus musculus with 23 samples.

Results

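The Snrpn-Snhg14 unit lies on mouse chromosome 7, in the imprinted domain whose human counterpart is disturbed in Prader-Willi and Angelman syndromes. Its 8 members were taken by symbol out of the 26183 gene symbols of the deposited tables, namely Snrpn, Snurf, Snhg14, Snord64, A230006K03Rik, A230057D06Rik, A330076H08Rik and Ube3a. All 8 had rows in the total count tables and in the allelic tables of both sexes. Snrpn, Snurf, Snhg14 and Snord64 belong to 1 stretch of overlapping transcription, Ube3a lies at its far end on the opposite strand, and the other 3 lie apart from it, between Snrpn and Ndn. The members were chosen by their CPM, allele reads and paternal shares across the genotypes of these embryos. Their values by genotype are therefore a description: how many members passed a fit across all genes is counted, but nothing is read from those counts. Differences between the sexes were not used in the choice and were tested.

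RNA-seq was performed on 23 whole mouse embryos of mid-gestation (E13.5), with each library made from 1 embryo. The embryos were hybrids of 129 mothers, either Zfp57+/- or Zfp57-/-, and Zfp57+/- fathers mostly of DBA/2J background. M+Z+ embryos (6 female, 4 male) had Zfp57 both in the oocyte and in the zygote. M-Z+ embryos (3 female, 3 male) lacked it in the oocyte and carried a functional copy from the father, and M-Z- embryos (4 female, 3 male) lacked it in the oocyte and in the zygote. The titles write the same genotype, Zfp57-/+, for both M+Z+ and for M-Z+, so the number of functional copies in the M+Z+ embryos is not settled by the labels. Where values of the 3 groups of a sex are given together, they stand in the order M+Z+, then M-Z+, then M-Z-. Litters are not given, so the p-values below measure the spread between embryos only. The maternal allele is always 129 and the paternal allele always DBA, so parent of origin and strain cannot be told apart.

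In normal mouse tissue, Snrpn and Snurf are transcribed from the paternal allele, because their shared start region is an imprinting control region that carries DNA methylation on the maternal allele. Snrpn encodes SmN, a core protein of the spliceosome that is most abundant in neurons, and Snurf is a small reading frame upstream of it on the same messenger RNA. In neurons the paternal transcript runs on into Snhg14, a long non-coding host of small nucleolar RNAs, whose far end is antisense to Ube3a and keeps the paternal copy of that ubiquitin ligase silent. Zfp57 is a zinc finger protein that binds the hexamer TGCCGC when its CpG is methylated and maintains methylation at imprinting control regions.

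The total counts were 15.2 to 24.1 M per embryo (M, mega; median 17.4 M), and 2.46 to 3.94 M reads were assigned to an allele. Zfp57 stood at 66.9 ± 17.0, 71.4 ± 6.28 and 33.0 ± 0.856 CPM (a gene's counts per M counts of its embryo) in the 3 groups of females (SD, n = 6, 3 and 4), and at 76.5 ± 9.90, 70.7 ± 3.78 and 29.7 ± 5.03 CPM in males (n = 4, 3 and 3). Against M+Z+, Zfp57 fell by 1.02 on the log2 scale in female M-Z- embryos and fell by 1.33 in male M-Z- embryos (edgeR adjusted p 0.000399 and 4.69e-05). A list of 8 neuronal markers summed to 1621 to 1776 CPM in female M-Z- against 1784 to 2166 CPM in female M+Z+ embryos, and to 1577 to 1756 against 1714 to 1884 CPM in males. Its range in M-Z+ embryos was 1899 to 2037 CPM in females and 1753 to 1825 CPM in males. Over 4 liver markers the sum was 2346 to 3833 CPM in female M-Z- against 3128 to 6720 CPM in female M+Z+ embryos and 1612 to 4182 against 4393 to 6375 CPM in males, over 4 red cell markers 769 to 1067 against 482 to 1049 CPM and 649 to 3017 against 506 to 692 CPM, and over 4 muscle markers M-Z- overlapped with M+Z+ in both sexes. No marker was at 0 in any group. The part of these lists in the results was not tested. In whole embryos, fewer cells of a type and less RNA per cell cannot be told apart.

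In the deposited mm9 annotation, Snrpn spans chromosome 7, 67127381 to 67595063, on the minus strand, with 25 exon blocks. Snurf (67127381 to 67150085) lies within it, and all 2020 of its exon bases are also exon bases of Snrpn. Snhg14 (66528107 to 67595063) has 137 exon blocks and shares 2800 exon bases with Snrpn, which are 68.3% of the exon bases of Snrpn, and 1856 with Snurf. Reads on these bases were counted for each gene, so the 3 rows are largely 1 measurement. Snord64 (67123697 to 67123742), a box C/D small nucleolar RNA, lies in an intron of Snhg14. Ube3a (66484120 to 66566206) is on the plus strand and shares 267 exon bases with Snhg14 across strands. On the other side, A230006K03Rik (68155151 to 68456535) begins 560 kb beyond the outermost Snrpn exon. A230057D06Rik (68850736 to 69072460) lies 1256 kb beyond it, A330076H08Rik (69088781 to 69127241) follows after 16.3 kb, and Ndn is a further 366 kb away. These 3 have no assigned function and are also on the minus strand.

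**Figure D1:**
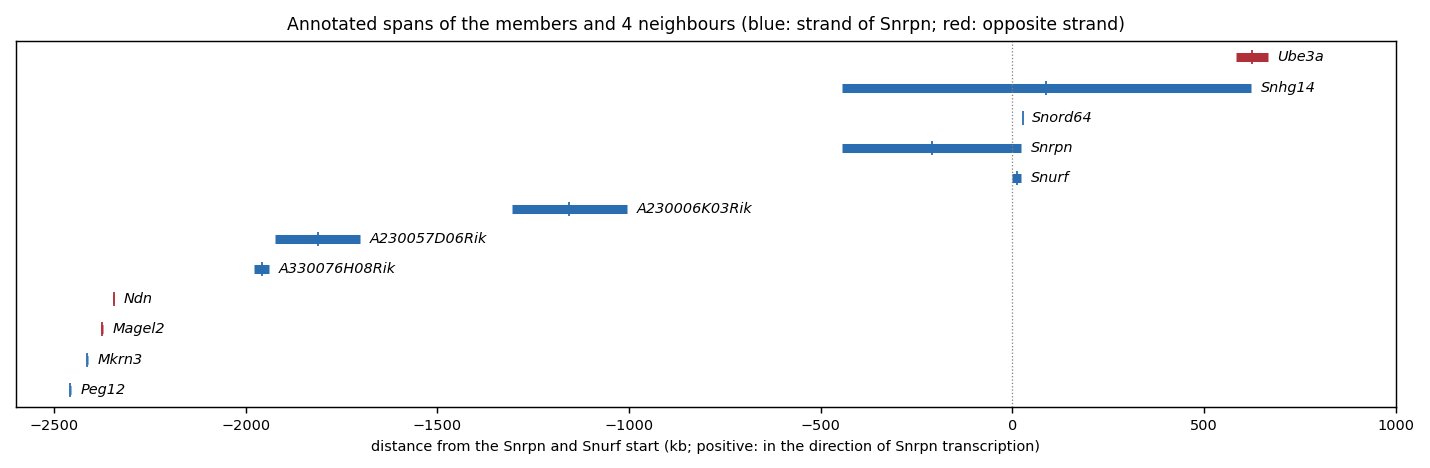
Annotated spans of the 8 members and of Ndn, Magel2, Mkrn3 and Peg12 on mm9, drawn to scale as distance in kb from the shared Snrpn and Snurf start, positive in the direction of Snrpn transcription (blue, the strand of Snrpn; red, the opposite strand). Snhg14 runs from the outermost Snrpn exon to Ube3a, and the 3 Rik genes lie on the far side of Snrpn, towards Ndn.

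The sequences below are shown because they carry the start of the unit, its only small RNA among the members, and the starts of the members with the largest differences. All were read from the minus strand of mm9. In Snord64, the capitals mark the box C letters TGATGA and the box D letters CTGA nearest the 3′ end, which guide RNAs of this class carry at their ends. In the other stretches, the capitals mark TGCCGC or its reverse complement GCGGCA. The Snrpn and Snurf start is printed from 250 bases before to 30 bases after it (chr7:67150056-67150335). The stretch of intron 1 covers 300 bases that begin 400 bases after the start (chr7:67149386-67149685) and holds 4 matches.
Snord64 (chr7:67123697-67123742): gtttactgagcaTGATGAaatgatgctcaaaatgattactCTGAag
Snrpn and Snurf start: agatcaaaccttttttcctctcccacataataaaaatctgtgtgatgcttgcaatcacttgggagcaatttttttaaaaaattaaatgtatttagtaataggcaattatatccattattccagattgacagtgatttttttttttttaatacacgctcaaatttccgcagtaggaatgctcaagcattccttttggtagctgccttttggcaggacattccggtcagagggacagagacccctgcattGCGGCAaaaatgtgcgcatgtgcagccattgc
Snrpn intron 1: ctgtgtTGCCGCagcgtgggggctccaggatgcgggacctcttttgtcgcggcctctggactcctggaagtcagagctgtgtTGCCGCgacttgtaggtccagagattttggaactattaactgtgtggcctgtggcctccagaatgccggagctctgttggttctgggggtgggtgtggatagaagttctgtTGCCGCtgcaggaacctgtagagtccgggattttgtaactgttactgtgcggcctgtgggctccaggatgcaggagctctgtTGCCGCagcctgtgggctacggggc

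The 4000 bases centred on the Snrpn and Snurf start held 10 matches to TGCCGC on either strand, from 2 bases before the start to 1015 bases after it, and 70 CpG sites. Of 26069 windows of this length around annotated gene starts, 49.0% held no match, the median was 1 match, and 11 windows (0.0422%) held 10 or more. Among promoters of 280 bases, 11.9% held at least 1 match, as the Snrpn and Snurf promoter did.

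The starts of A230057D06Rik (chr7:69072431-69072710), A330076H08Rik (chr7:69127212-69127491) and A230006K03Rik (chr7:68456506-68456785) are shown for comparison, over the same bases around the start. None of these letters occurred in them, nor within 2000 bases on either side of any of the 3 starts. CpG sites numbered 14, 21 and 16 in those windows. The window at the outermost start of Snrpn and Snhg14 (67595063) also held no match, with 19 CpG sites. The Ube3a window held 2 matches and 156 CpG sites.
A230057D06Rik start: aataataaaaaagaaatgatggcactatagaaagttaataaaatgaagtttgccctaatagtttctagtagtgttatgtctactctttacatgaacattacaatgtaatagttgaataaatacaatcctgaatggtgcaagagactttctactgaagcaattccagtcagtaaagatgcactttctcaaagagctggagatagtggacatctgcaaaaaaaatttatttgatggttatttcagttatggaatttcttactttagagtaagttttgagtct
A330076H08Rik start: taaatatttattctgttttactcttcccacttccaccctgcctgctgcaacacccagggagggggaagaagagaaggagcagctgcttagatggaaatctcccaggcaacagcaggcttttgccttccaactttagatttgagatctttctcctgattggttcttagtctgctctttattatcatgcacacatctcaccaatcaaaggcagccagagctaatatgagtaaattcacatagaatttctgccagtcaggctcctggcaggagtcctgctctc
A230006K03Rik start: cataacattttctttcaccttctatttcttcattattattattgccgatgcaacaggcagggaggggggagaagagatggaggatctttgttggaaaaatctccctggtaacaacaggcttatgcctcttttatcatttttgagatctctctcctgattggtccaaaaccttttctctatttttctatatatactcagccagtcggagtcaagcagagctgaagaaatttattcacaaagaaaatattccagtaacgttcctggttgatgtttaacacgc

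The starts of A330076H08Rik and A230006K03Rik resembled each other, with 62 of 100 bases identical in the best ungapped stretch against 41 to 46 in the other pairs of starts compared. A match or its absence describes these letters only.

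Snrpn, which encodes the spliceosome protein SmN, was higher in both mutant genotypes than in M+Z+ embryos of the same sex. The 6 female M+Z+ embryos ranged from 87.8 to 101 CPM with a median of 92.0. The female M-Z+ embryos stood at 174, 126 and 120 CPM, and the female M-Z- embryos at 172, 169, 180 and 165 CPM. Thus 1 M-Z+ female was at the level of the M-Z- females and the other 2 lay between them and the M+Z+ females. In males, the M+Z+ embryos were at 92.8, 93.4, 92.8 and 90.4 CPM, the M-Z+ embryos at 146, 171 and 153 CPM and the M-Z- embryos at 167, 206 and 188 CPM. All M-Z+ and M-Z- embryos lay above all M+Z+ embryos of their sex, and the 2 mutant genotypes overlapped. On the log2 scale of the edgeR fit, Snrpn was 0.57 ± 0.087 (SE) higher in female M-Z+ and 0.87 ± 0.079 higher in female M-Z- than in M+Z+ embryos, and 0.74 ± 0.091 and 1.06 ± 0.091 higher in males.

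Snurf followed Snrpn closely, since its counts were 96.5% to 98.9% of those of Snrpn in every embryo. It stood at 91.7 ± 5.18, 136 ± 29.0 and 167 ± 5.38 CPM in females (SD, n = 6, 3 and 4) and at 90.9 ± 1.60, 152 ± 12.9 and 181 ± 18.4 CPM in males (n = 4, 3 and 3). Per length, Snurf was at 100 and Snrpn at 50.4 TPM (the count per length over the sum of all such values, in M) in female M+Z+ embryos, because nearly the same reads were divided by 49.3% of the bases. The order of the other levels per length in these embryos was Ube3a (58.0 ± 7.38 TPM), Snord64 (52.5 ± 11.5), Snhg14 (13.0 ± 0.56), A330076H08Rik (3.32 ± 1.19), A230057D06Rik (1.58 ± 0.294) and A230006K03Rik (0.432 ± 0.0766), with Snrpn after Snord64 (SD, n = 6). The Snord64 value rests on 15 to 28 counts per embryo over 46 bases, so its place in this order is uncertain. In CPM, Ube3a stood at 241, Snrpn at 93.6 and Snord64 at 1.09 in these embryos. The TPM differences between these 3 genes were not tested.

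Snhg14, the long host RNA, stood at 113 ± 3.83 CPM in female M+Z+ embryos (SD, n = 6). Its level was 217, 157 and 145 CPM in the 3 female M-Z+ embryos and 208 ± 6.85 CPM in female M-Z- embryos (n = 4). The male values were 109 ± 1.57 (n = 4), 186 ± 13.1 (n = 3) and 219 ± 21.8 CPM (n = 3). The order of genotypes was thus that of Snrpn, and among the members it was the male Snhg14 row alone that did not overlap between M-Z- and M-Z+ embryos (201 to 244 against 175 to 201 CPM), and its nearest embryos had the same rounded value.

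Because Snrpn reads are also counted for Snhg14, the difference between the 2 rows is a lower bound on the reads of Snhg14 alone. It was 19.1 ± 2.57, 33.0 ± 8.88 and 36.9 ± 1.10 CPM in females (SD, n = 6, 3 and 4) and 16.3 ± 2.44, 29.1 ± 0.288 and 32.4 ± 6.66 CPM in males (n = 4, 3 and 3). This bound was thus higher in the mutant groups as well.

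Snord64, which is intron-encoded, had 15 to 61 counts per embryo. Whether these reads came from the processed small RNA or from unspliced Snhg14 RNA cannot be told apart. Its level was 1.09 ± 0.21, 2.37 ± 0.65 and 2.44 ± 0.54 CPM in females (SD, n = 6, 3 and 4). Males stood at 1.34 ± 0.17, 2.23 ± 0.65 and 2.04 ± 0.31 CPM (n = 4, 3 and 3). The mutant embryos all exceeded the M+Z+ embryos of their sex, with no order between M-Z+ and M-Z-.

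**Figure D2:**
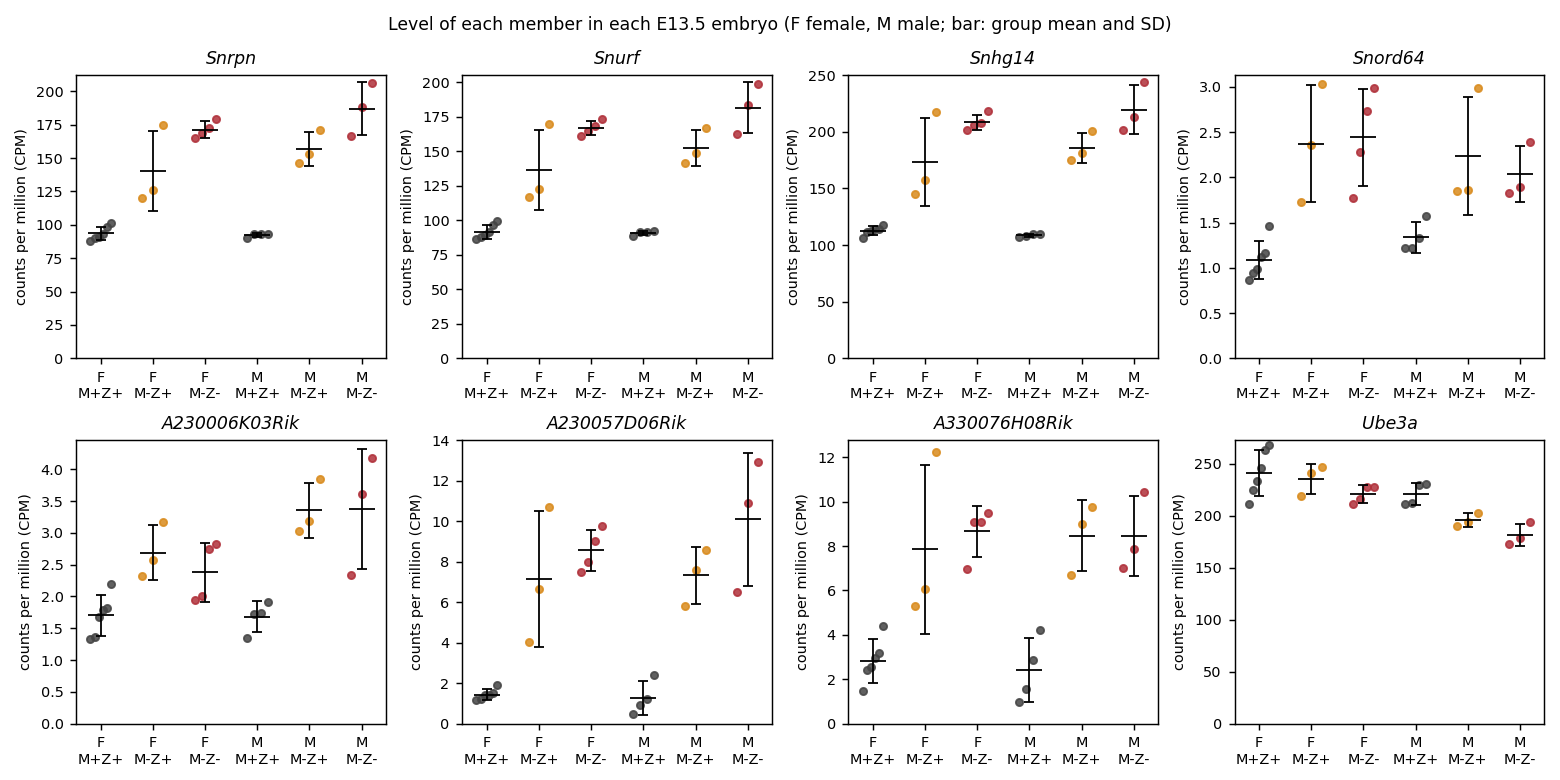
CPM of each of the 8 members in each embryo by sex and genotype (F, female; M, male; bars show the group mean and SD over 6, 3 and 4 female and 4, 3 and 3 male embryos). Outside the panels of Ube3a and A230006K03Rik the M+Z+ embryos are the lowest of their sex, and in the Snrpn, Snurf and Snhg14 panels 1 of the 3 female M-Z+ embryos lies at the level of the M-Z- females.

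The 2 non-coding genes next to each other near Ndn had the largest differences of all members. A230057D06Rik ranged from 1.15 to 1.90 CPM in the 6 female M+Z+ embryos, with a median of 1.40. It was at 10.7, 6.67 and 4.05 CPM in female M-Z+ and at 7.49, 7.99, 9.02 and 9.74 CPM in female M-Z- embryos. The male M+Z+ embryos were at 1.20, 0.918, 0.465 and 2.42 CPM, and of these the last was the highest of all 10 M+Z+ embryos. Male M-Z+ embryos stood at 8.58, 7.59 and 5.83 CPM and male M-Z- embryos at 12.9, 10.9 and 6.50 CPM. The groups of mutant and M+Z+ embryos did not overlap in either sex, and the means differed 4.98-fold and 5.97-fold in female and 5.85-fold and 8.07-fold in male M-Z+ and M-Z- embryos. The male differences depended on M+Z+ embryo 4, without which they were 3.0 and 3.53 on the log2 scale in place of 2.52 and 3.05. Against that embryo alone they were 1.59 and 2.12.

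A330076H08Rik ranged from 1.47 to 4.42 CPM in female M+Z+ embryos, with a median of 2.76. It was at 12.2, 5.29 and 6.05 CPM in female M-Z+ and at 9.10, 9.10, 6.97 and 9.49 CPM in female M-Z- embryos. Males had 1.58, 2.88, 0.988 and 4.21 CPM in M+Z+, 9.75, 8.97 and 6.70 CPM in M-Z+ and 10.5, 7.89 and 6.99 CPM in M-Z- embryos. Each mutant embryo was above each M+Z+ embryo of its sex, and the M-Z+ and M-Z- ranges overlapped. On the log2 scale the male differences were 1.81 and 1.86, and against M+Z+ male 4 alone they were 1.01 and 1.06. The female differences were 1.45 and 1.61, and against the M+Z+ females numbered 1 to 3 alone they were 1.84 and 2.0. This gene shares 67 exon bases with the microRNA gene Mir344g, which had 264 counts in all 23 embryos together.

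A230006K03Rik, the nearest of the 3 to Snrpn, was the lowest member per length in female M+Z+ embryos and had 22 to 68 counts per embryo. Its level was 1.70 ± 0.32, 2.69 ± 0.43 and 2.38 ± 0.47 CPM in females (SD, n = 6, 3 and 4), where M-Z- overlapped with M+Z+. In males it was 1.68 ± 0.24, 3.35 ± 0.43 and 3.37 ± 0.94 CPM (n = 4, 3 and 3), with no overlap between mutant and M+Z+ embryos.

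Ube3a, the E3 ubiquitin ligase on the other strand, was the member that was not higher in the mutants. It stood at 241 ± 22.0, 236 ± 14.5 and 221 ± 8.62 CPM in females (SD, n = 6, 3 and 4), with overlap in each pair. The 4 male M+Z+ embryos were at 231, 229, 212 and 211 CPM. The male M-Z+ embryos were at 194, 203 and 190 CPM and the male M-Z- embryos at 194, 178 and 172 CPM, all below the M+Z+ males. The log2 difference was -0.20 ± 0.070 (SE) in M-Z+ and -0.25 ± 0.070 in M-Z- males. Among the M+Z+ females, those numbered 4 and above were at 245 to 268 CPM and those numbered 1 to 3 at 211 to 234 CPM. Against the latter alone, the female log2 differences of Ube3a were 0.05 in M-Z+ and -0.03 in M-Z- embryos, in place of -0.05 and -0.13.

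A gene was called different between genotypes at an adjusted p below 0.05 in edgeR with a log2 difference of at least 0.5. Of the 8 members, all of which were tested, 4 were called in female M-Z+ embryos against M+Z+, among 0.0593% of all genes tested, and 6 in female M-Z- embryos, among 0.563%. In males the numbers were 4 in M-Z+, among 0.048% of all genes, and 5 in M-Z- embryos, among 0.39%. Snrpn, Snurf, Snhg14 and A230057D06Rik were called in each of these comparisons, A330076H08Rik in M-Z- embryos of both sexes and Snord64 in M-Z- females, all of them higher, in which direction the shares of all genes were 0.0593%, 0.285%, 0.048% and 0.264%. DESeq2 called 5, 6, 5 and 6 members in the same order, among 0.0671%, 0.855%, 0.061% and 1.12% of the genes to which it gave an adjusted p. Nothing is read from these counts, because the contrasts chose the members. The members' median log2 difference was 0.63 and 0.88 in female and 0.75 and 1.05 in male M-Z+ and M-Z- embryos, beside medians of all genes tested between -0.00358 and 0.00167.

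Single embryos weighed on the M-Z+ counts. Without female M-Z+ embryo 1, only A230057D06Rik of the members was called in M-Z+ females and Snrpn was 0.38 higher, and without female M+Z+ embryo 6 it was 2 members. The genes called in all were 5 in each of these 2 fits, in place of 10. In M-Z+ males no member was called without M+Z+ embryo 1 or 2 or without M-Z+ embryo 2 or 3. An unadjusted p under 0.05 was found for 7 or 8 of the 8 in each of these edgeR fits. Nothing is read from that number either, because the contrasts chose the members. In each of these 4 fits no gene at all was called, in place of 8 with all embryos, so the 0 is that of the whole fit. Other fits called more genes. Without male M+Z+ embryo 4, 54 of 16600 genes were called in M-Z+ and 144 in M-Z- males, in place of 8 and 65. Without male M-Z- embryo 3, 899 of 16866 genes were called in M-Z- males. Members called were 5 in each of these larger fits.

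In 7 of the 8 members every female M-Z+ embryo lay above every female M+Z+ embryo, as in 2.24% of all genes tested. For female M-Z- embryos it was 6 of 8, beside 2.24%. In males 7 lay above in M-Z+ and in M-Z- embryos, beside 7.39% and 4.41%, and Ube3a lay below, beside 5.06% and 6.36%. In females no member lay below, beside 1.03% and 2.05% of all genes. Again these contrasts chose the members.

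Between M-Z- and M-Z+ embryos, no member was called by edgeR or DESeq2 in either sex. The shares of all genes called were 0.196% in females and 0.15% in males by edgeR and 0.284% and 0.291% by DESeq2. Without male M-Z- embryo 3, edgeR called 376 of 16866 genes in males, in place of 25, and again no member. With either tool, 3 members had an unadjusted p under 0.05 in each sex. In edgeR, 1458 of 16871 genes in females and 1583 of 16664 in males had such a p. In females it was 5, 2 and 0 members without M-Z+ embryo 1, 2 and 3, and 3 members without any single M-Z- embryo. Among all genes, 0.124% in females and 0.084% in males were called higher in M-Z-. In males Snhg14 alone lay above in every M-Z- embryo, beside 4.24% of all genes, and no member lay below, beside 8.74%. In females no member lay above or below, beside 4.36% and 5.86%. The 3 members with an unadjusted p under 0.05 with all embryos were the overlapping rows of Snrpn, Snurf and Snhg14, at 0.28 to 0.32 higher in M-Z- on the log2 scale.

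The allele of origin of the Snrpn RNA was read from the allelic counts. In the 10 M+Z+ embryos, 637 to 911 paternal and 1 to 15 maternal reads of Snrpn were found per embryo. The P-score, the paternal share minus 0.5, was 0.492 ± 0.00721 in female and 0.496 ± 0.00205 in male M+Z+ embryos (SD, n = 6 and 4). It is 0.5 where all reads are paternal, 0 where the alleles are equal and -0.5 where all are maternal. Snrpn was thus almost purely paternal in every M+Z+ embryo.

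In female M-Z+ embryos, the Snrpn reads were 609 paternal and 706 maternal in embryo 1, 636 and 265 in embryo 2, and 718 and 254 in embryo 3. The paternal shares were 46.3% (95% Wilson interval 43.6% to 49.0%), 70.6% (67.5% to 73.5%) and 73.9% (71.0% to 76.5%). Embryo 1 had thus lost the paternal excess and the other 2 had kept part of it. The male M-Z+ embryos had shares of 60.8% (57.7% to 63.9%), 57.6% (54.6% to 60.4%) and 63.8% (60.9% to 66.7%), all within the range of the females. These intervals hold for counting error alone, because several reads without identifiers can stem from 1 molecule.

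In M-Z- embryos the Snrpn alleles were near equal. The paternal share was 45.8%, 46.9%, 49.7% and 45.7% in the 4 females and 52.4%, 45.1% and 49.0% in the 3 males. The paternal share of all autosomal reads was 43.5% to 48.5% over the 23 embryos, below an even share. Corrected by each embryo's autosomal share, the mean Snrpn share was 50.2% in female and 53.6% in male M-Z- embryos, and 66.4% and 65.0% in M-Z+ embryos.

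Per M allele-assigned reads, the paternal output of Snrpn was similar in the 3 genotypes and the maternal output was near 0 in M+Z+ embryos only. The paternal output was 242 ± 7.72, 235 ± 19.3 and 227 ± 24.5 in females (SD, n = 6, 3 and 4) and 241 ± 11.8, 244 ± 14.3 and 246 ± 23.1 in males (n = 4, 3 and 3). The maternal output was 1.90 ± 1.78, 147 ± 93.4 and 255 ± 9.24 in females and 1.04 ± 0.49, 159 ± 27.6 and 261 ± 59.7 in males. The maternal output of female M-Z+ embryo 1 (255) was in the range of the M-Z- females (242 to 264), and that of the other 2 was 95.4 and 90.9. Snurf, Snhg14 and Snrpn, which overlap, had like mean P-scores in each group.

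The allelic row of Snhg14 held more reads than that of Snrpn, and the paternal share was also taken over the difference between the 2 rows. How overlapping genes were treated in the allelic counts is not stated, so this difference is not a count of the reads outside the Snrpn exons. Its paternal share was 99.3% ± 0.277, 66.6% ± 12.1 and 45.3% ± 2.89 in females (SD, n = 6, 3 and 4), and 99.5% ± 0.442, 60.5% ± 3.43 and 49.2% ± 2.16 in males (n = 4, 3 and 3).

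Snord64 had no maternal read in any of the 10 M+Z+ embryos, against 6 to 25 paternal reads in each. Over the 123 allele-assigned reads, a count of 0 allows a maternal share of up to 2.44%. In female M-Z+ embryos the paternal and maternal reads were 10 and 27, 15 and 11, and 13 and 2, and in male M-Z+ embryos 14 and 15, 5 and 10, and 11 and 12. Maternal reads exceeded paternal reads in 3 of the 4 female and all 3 male M-Z- embryos. Maternal Snord64 was thus read in each of the 13 mutant embryos.

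**Figure D3:**
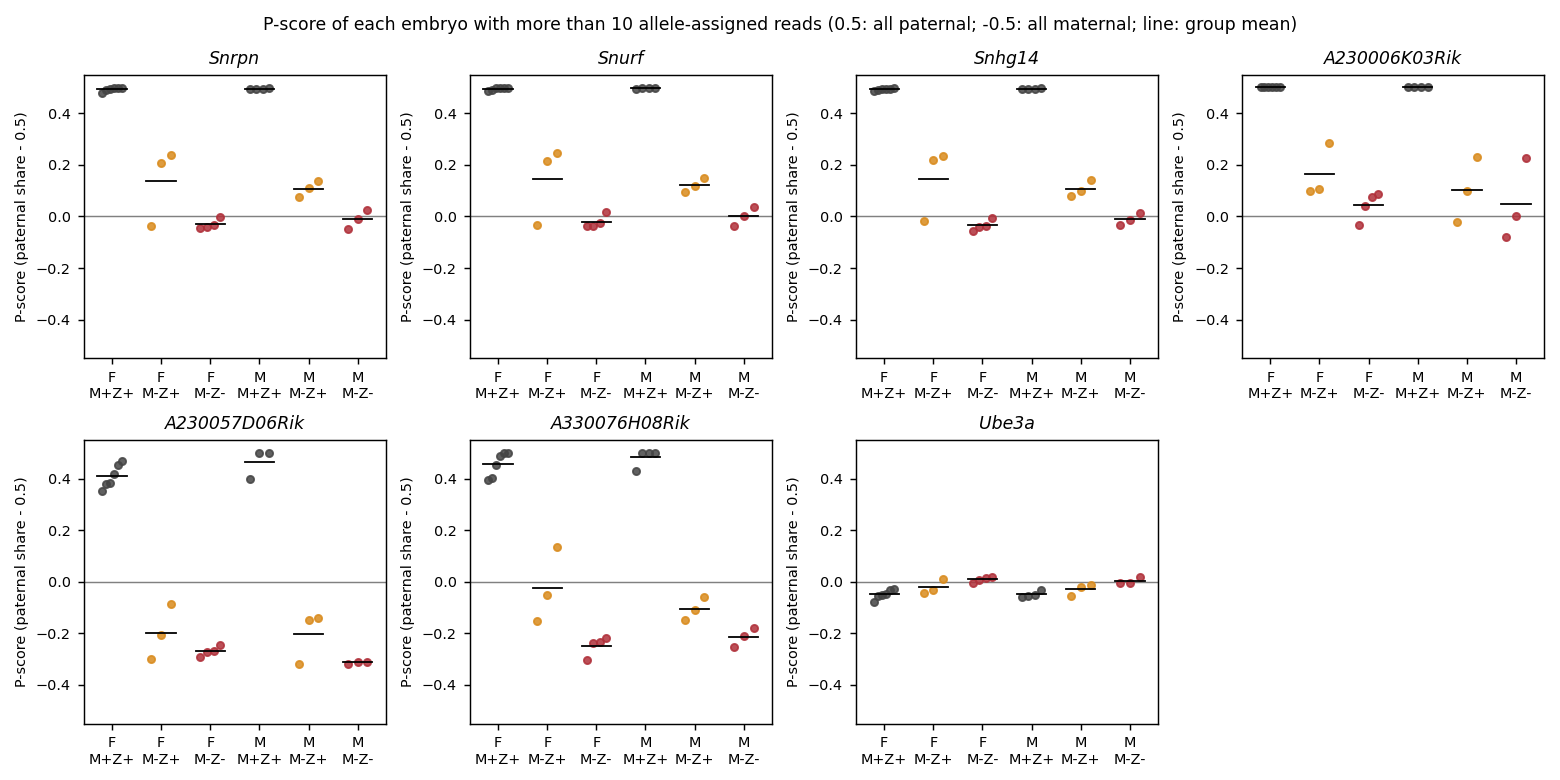
P-score (paternal share of allele-assigned reads minus 0.5) of 7 members in each embryo with more than 10 such reads, by sex and genotype (F, female; M, male; line, group mean). In M+Z+ embryos all members but Ube3a lie at 0.35 or higher, with A230057D06Rik the lowest of them, and in M-Z- embryos A230057D06Rik and A330076H08Rik lie below -0.1 while A230006K03Rik lies between -0.0806 and 0.227.

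A230057D06Rik went further than Snrpn, to a maternal excess. In M+Z+ embryos it had 8 to 40 paternal and 0 to 3 maternal reads per embryo, and its mean P-score was 0.409 ± 0.0459 in females and 0.47 ± 0.0597 in males (SD, n = 6 and 3, without the male that had 8 reads). In female M-Z+ embryos, 37, 34 and 31 paternal reads stood beside 149, 82 and 44 maternal reads. In female M-Z- embryos, 31, 33, 36 and 49 paternal reads stood beside 119, 111, 120 and 144 maternal reads. In each mutant female the maternal reads were thus the more abundant. The males were alike, with 44, 20 and 33 paternal beside 79, 90 and 61 maternal reads in M-Z+ and 38, 33 and 18 beside 161, 141 and 81 in M-Z- embryos. The mean P-score was -0.198 ± 0.107 in female M-Z+, -0.270 ± 0.0193 in female M-Z-, -0.203 ± 0.0997 in male M-Z+ and -0.313 ± 0.00494 in male M-Z- embryos (SD, n = 3, 4, 3 and 3). Per M allele-assigned reads, the maternal mean was 2.7 and 3.31 times the paternal mean in female and 2.39 and 4.30 times in male M-Z+ and M-Z- embryos.

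A330076H08Rik also had a maternal excess in M-Z- embryos. Paternal and maternal reads were 41 and 116, 40 and 109, 29 and 74, and 34 and 140 in the 4 females, and 42 and 102, 38 and 80, and 24 and 73 in the 3 males. In M-Z+ embryos its P-score was -0.151, -0.0513 and 0.133 in females and -0.110, -0.147 and -0.0591 in males, so that 1 of the 6 embryos kept a paternal excess. Its M+Z+ mean was 0.456 ± 0.0474 in females and 0.482 ± 0.0357 in males (SD, n = 6 and 4). With the autosomal share corrected, the mean paternal share in M-Z- embryos was 25.4% and 21.9% for A230057D06Rik and 27.6% and 32.8% for A330076H08Rik in females and males. The maternal excess of both genes in M-Z- embryos was thus larger than the 129 excess of all autosomal reads.

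A230006K03Rik was read from the paternal allele alone in all 10 M+Z+ embryos, where 186 allele-assigned reads with none maternal allow a maternal share of up to 1.61%. Its P-score was 0.164 ± 0.104 in female and 0.104 ± 0.126 in male M-Z+ embryos, and 0.0439 ± 0.0539 and 0.0489 ± 0.160 in M-Z- embryos (SD, n = 3, 3, 4 and 3). It resembled Snrpn in ending near 0, on 17 to 52 allele-assigned reads per embryo in M-Z-.

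**Figure D4:**
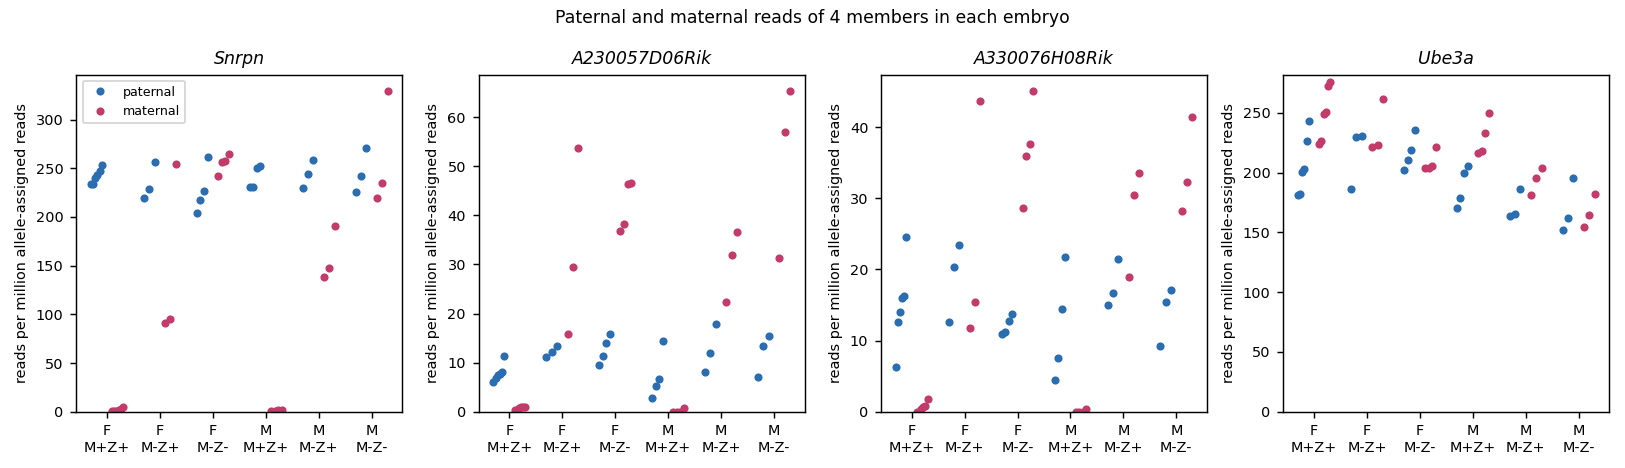
Paternal (blue) and maternal (red) reads per M allele-assigned reads for Snrpn, A230057D06Rik, A330076H08Rik and Ube3a in each embryo (F, female; M, male). Paternal Snrpn lies between 204 and 271 in all 23 embryos while maternal Snrpn goes from under 5 in M+Z+ to 219 or more in M-Z- embryos, and maternal Ube3a is lower in M-Z- than in M+Z+ embryos.

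Ube3a was read from both alleles in every embryo, and its maternal output was lower in M-Z- than in M+Z+ embryos. The paternal share was 42.2% to 47.3% in the 6 female M+Z+ embryos and 44.1% to 46.9% in the 4 males, near the autosomal share. In M-Z- embryos it was 51.8%, 51.5%, 50.7% and 49.6% in females and 51.8%, 49.5% and 49.6% in males, above every M+Z+ embryo of the same sex. In M-Z+ embryos it was 51.1%, 45.5% and 46.8% in females and 48.8%, 44.6% and 47.8% in males, so that the female M-Z+ embryo with the highest share was again embryo 1. The maternal output per M allele-assigned reads was 250 ± 22.2, 235 ± 22.7 and 209 ± 8.61 in females (SD, n = 6, 3 and 4) and 229 ± 15.7, 193 ± 11.6 and 167 ± 13.9 in males (n = 4, 3 and 3). Each M-Z- embryo was below each M+Z+ embryo of its sex. For this output and for the paternal share, how many of all genes separate in this way was not counted. The paternal output overlapped between all genotypes, although its male mean was also lower in the mutants, at 206 ± 24.5, 216 ± 25.5 and 217 ± 14.5 in females and 189 ± 16.8, 172 ± 12.4 and 170 ± 23.0 in males. The M-Z+ females overlapped with the M+Z+ females. The sum of the neuronal markers was also lower in M-Z- embryos, and its part was not tested.

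The 6 M-Z+ embryos differed in their Snrpn P-score, from -0.0369 to 0.239. How the members moved together over these embryos is given without a test, since the rule used the same values, and both sexes were pooled. The Snrpn and A330076H08Rik P-scores had Pearson's r = 0.82 and Spearman's rho = 1.0, so the embryos had the same order for both genes. Without the 2 embryos farthest from the median Snrpn value, r was 0.90. For A230057D06Rik the relation with Snrpn was r = 0.75 and rho = 0.71, and r was 0.38 without those 2. For A230006K03Rik, on 25 to 41 allele-assigned reads per embryo, it was r = 0.41 and rho = 0.29, and r was 0.93 without those 2. The P-score and the CPM of Snrpn itself, which share library and reads, had r = -0.93 and rho = -0.94. For A230057D06Rik and A330076H08Rik the relation of P-score and CPM was r = -0.70 and -0.69, with rho = -0.54 and -0.89.

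**Figure D5:**
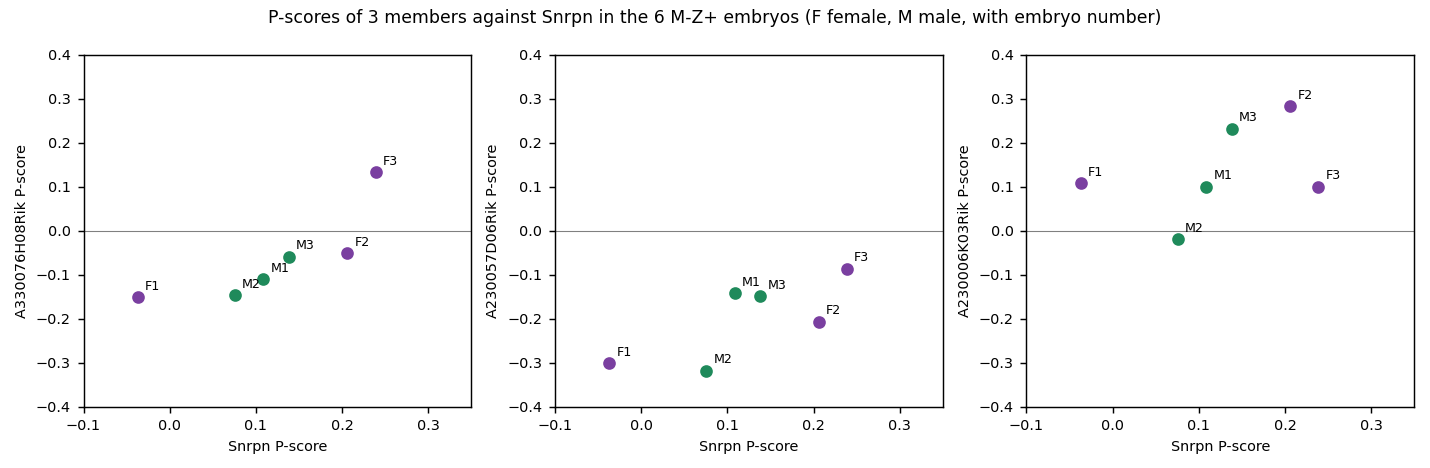
P-scores of A330076H08Rik, A230057D06Rik and A230006K03Rik against the Snrpn P-score in the 6 M-Z+ embryos (F, female; M, male, with the embryo number). Female embryo 1 has the lowest Snrpn P-score (-0.0369) and the lowest for A330076H08Rik (-0.151), and the order of the 6 embryos is the same for these 2 genes.

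The sexes were compared because effects of sex were a question of the study. In M+Z+ embryos, where edgeR called 0.0817% and DESeq2 0.0742% of all genes between the sexes, no member was called by edgeR or DESeq2, and 1 member had an unadjusted p under 0.05 with either tool. This was Ube3a, at 0.12 ± 0.058 (SE) higher in females with an adjusted p of 0.935 in edgeR. The difference between the sexes in the genotype effect was called for none of the 8 members in M-Z+ or in M-Z- embryos, with 0 members at an unadjusted p under 0.05 in edgeR and in DESeq2, and with 0.0% of all genes called. For Snrpn, that difference was -0.18 ± 0.135 in M-Z+ (adjusted p 1.0) and -0.18 ± 0.129 in M-Z- embryos (adjusted p 0.826). For Snord64, called in females and not in males, it was 0.53 ± 0.329 (adjusted p 0.801), so the sexes were not shown to differ. Leaving out 1 embryo at a time, no member was called for such a difference either. Without female M-Z+ embryo 1, 3 members had an unadjusted p under 0.05 in M-Z+, as did 598 of 17331 genes. Without male M-Z- embryo 1, 2 members had it in M-Z-, as did 2161 of 17351 genes. It was at most 1 member leaving out any other embryo and with the replicate block.

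The Snrpn P-score of females minus that of males was -0.00337 in M+Z+ (exact two-sided permutation p = 0.486), 0.0286 in M-Z+ (exact p = 0.900, where 0.1 is the smallest the design allows) and -0.0183 in M-Z- embryos (exact p = 0.514). In an edgeR fit of allele by sex, no member passed in any genotype, and 0 had an unadjusted p under 0.05. Without female M-Z+ embryo 1, 3 members had such a p in M-Z+, as did 441 of 7367 genes. Without male M+Z+ embryo 1 or 3, 1 member had it in M+Z+. Leaving out any other single embryo it was 0, and no member passed in any of these fits. Snord64 and A230006K03Rik could not be tested in M+Z+ embryos, where they had no maternal reads, so that 6 members were tested there. With all embryos, 1.17%, 1.06% and 1.86% of the 7362 genes tested were called in the 3 genotypes. The members are autosomal, and of the called genes 10, 4 and 62 were autosomal. A fit of the 7236 autosomal genes alone called 0, 0 and 57, with 366, 386 and 427 at an unadjusted p under 0.05. DESeq2 was not run on the allelic counts.

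The genes around the unit and its partners in function were read from 4 lists. Of 18 neighbouring genes, 15 were found and 14 were tested, and the same 4 rose in both mutant genotypes of both sexes while none fell. They were Ndn, Magel2, Mkrn3 and Peg12, paternally expressed genes without introns. Ndn, which encodes the MAGE protein necdin, rose by 0.51 ± 0.083 and 0.90 ± 0.076 in female and by 0.66 ± 0.092 and 1.06 ± 0.092 in male M-Z+ and M-Z- embryos (log2, SE; edgeR adjusted p 0.0187, 9.2e-07, 0.0195 and 4.69e-05). In M-Z+ females 2 of the 4 were called without M+Z+ embryo 5, M+Z+ embryo 6 or M-Z+ embryo 1. In M-Z+ males none was called without M+Z+ embryo 1 or 2 or any single M-Z+ embryo, and 1 without M+Z+ embryo 3, with 4 or 5 of the 14 neighbours at an unadjusted p under 0.05 in each of these edgeR fits, while DESeq2 called 4 with all embryos. Without M-Z+ embryo 1 the fit called 3 genes in all, without M+Z+ embryo 3 it called 4, and in the others it called none. These 4 genes are not independent support, as their differences were known when the list was made. Ipw, a non-coding RNA whose 734 exon bases all lie in exons of Snhg14, had log2 differences of 1.14, 0.96, 0.97 and 0.88 on 379 counts in all embryos together and was not called. The median of the neighbours was 0.03, 0.02, 0.03 and -0.05.

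No gene of the other lists was called by edgeR or DESeq2 in these 4 comparisons. With either tool, at most 2 genes of each list had an unadjusted p under 0.05 in any of them. Among the 7 Sm ring genes, Snrpb, whose product SmB is nearly identical to SmN, had log2 differences of -0.08, 0.07, 0.07 and 0.03 in female M-Z+ and M-Z- and male M-Z+ and M-Z- embryos. The medians of the Sm ring list were -0.08, 0.01, 0.00405 and 0.08. Among the 4 genes of the box C/D core proteins the values ranged from -0.17 to 0.12. Among 4 partners of Ube3a the values ranged from -0.19 to 0.05, and none was called.

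Outside the members, the genes whose log2(CPM + 1) followed Snrpn most closely over the 23 embryos were Ndn (Pearson's r = 0.993), Mkrn3 (0.945), Magel2 (0.927), Peg12 (0.911) and Plxnd1 (0.894) among 15503 genes whose mean reached 1 CPM. The same 4 neighbours led for A230057D06Rik, with Magel2 first (0.973), then Peg12 (0.940), Mkrn3 (0.923) and Ndn (0.919), and Fbrs (0.858) as the fifth. Among the members, A230057D06Rik had r = 0.932, A330076H08Rik 0.853, Snord64 0.786, A230006K03Rik 0.772 and Ube3a -0.584 with Snrpn. These values describe embryos that share library, depth and genotype.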

How the data were processed

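RNA from 23 whole E13.5 embryos had been made into libraries with a TruSeq kit. Sex had been determined by PCR for SRY. The deposited gene tables held the raw counts of each embryo, and the authors made them with STAR 2.7.8a and Subread 2.0.1 (featureCounts) on mm9, per the submitters' processing notes and the study's methods. Counting was strand-specific, and a read over several genes counted for each. As a check of strand, Xist had 43209 to 64653 and Tsix 62 to 246 counts in females, although they share 1959 exon bases. The deposited allelic tables held raw counts per parental allele, which the authors made from GATK variants, a masked mm9, STAR, SNPsplit and featureCounts. How overlapping genes were treated there is not stated. Columns headed WT were read as M+Z+. Among the 6 female M+Z+ allelic columns, 4 carried 2 shared header names and were used without embryo numbers. The deposited exon length of each gene was used for TPM.

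The members and lists were chosen with earlier results of these data known. The genes named are the members, Zfp57, genes of 4 lists (neighbours, Sm ring, box C/D core proteins, Ube3a partners), the 5 genes most correlated with Snrpn and with A230057D06Rik among those whose mean reached 1 CPM, and genes overlapping a member. Cell types were read from 4 marker lists. Snord107, Snord115 and Snord116 were not analysed here.

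CPM was the count of a gene over the embryo's total in M (mega). Within a sex, the 3 genotypes entered 1 quasi-likelihood fit in R 4.3.3 (edgeR 4.0.16 with limma 3.58.1, filtered by filterByExpr and scaled by TMM), with Benjamini-Hochberg adjustment over all genes tested. A log2 difference of at least 0.5 was required between genotypes and 0.3 between sexes, and no minimum for interactions. P-scores needed more than 10 allele-assigned reads. DESeq2 1.42.0, other scaling, filters and sample sets were alternatives. Permutation tests and sequences used Python 3.11.15, pandas 2.3.3 and SciPy 1.17.1. The scripts were tested on simulated data. No pair of replicates was a duplicate (lowest chi-square per degree of freedom 2.27).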

Additional observations from a re-analysis of the deposited data

Results flagged for a closer look

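Of 43 groups of values with 4 to 10 embryos, 3 held an embryo far from the others, where chance gives about 1 in 20. The Snurf P-score of male M+Z+ embryo 2 was 0.494, below 0.498 to 0.499 in the other 3. A330076H08Rik stood at 6.97 CPM in female M-Z- embryo 3, below 9.10 to 9.49 CPM in the other 3. The A330076H08Rik P-score of male M+Z+ embryo 3 was 0.429, where 1 of 14 reads was maternal, and it was 0.5 in the other 3. No member had opposite directions in every embryo of the 2 sexes.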

How the results depend on the processing

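Over 23 results and 300 alternatives, 275 kept their direction and their side of the threshold or lay within the spread, 23 moved and 2 reversed. In M-Z+ females 1 member was called in place of 4 with the replicate block and with only the 2 compared groups, and 1 listed pathway gene in place of 4 with the replicate block. The replicate numbers did not pair the embryos, since the median correlation of same-numbered deviations was -0.059 over 10 female and -0.027 over 9 male pairs. With only the M+Z+ male numbered 4, the number of members called also moved in M-Z+ and in M-Z- males, but that reference group held 1 embryo. Corrected by the autosomal share, the Snrpn P-score differed from M+Z+ by -0.492 in female M-Z-, -0.346 in male M-Z+ and -0.460 in male M-Z- embryos, in place of -0.522, -0.388 and -0.507. Leaving out 1 embryo at a time, members called ranged from 1 to 5 in female M-Z+, 5 to 6 in female M-Z-, 0 to 5 in male M-Z+ and 4 to 5 in male M-Z- embryos, and pathway genes called from 2 to 4 in female and 0 to 4 in male M-Z+ embryos. The Snrpn P-score differed from M+Z+ by -0.408 to -0.270 in female M-Z+, -0.531 to -0.518 in female M-Z-, -0.404 to -0.372 in male M-Z+ and -0.525 to -0.489 in male M-Z- embryos. Its difference between the sexes ranged from -0.00462 to -0.000855 in M+Z+, -0.0228 to 0.115 in M-Z+ and -0.0369 to -0.000389 in M-Z- embryos. In M-Z+ it was -0.00644 without female M-Z+ embryo 2 and -0.0228 without female M-Z+ embryo 3, in place of 0.0286. The cause of these shifts was not tested. Depth limits the P-scores of Snord64 and A230006K03Rik, which rest on 11 to 52 reads per embryo.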
